A study of Mus musculus with 4 samples.

Results

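The mRNA levels of 10 genes of the neuromuscular junction, the synapse at which a motor axon contacts a muscle fiber, were compared between Old and Young TA muscle. The genes encode the 5 subunits of the muscle acetylcholine receptor (Chrna1, Chrnb1, Chrnd, Chrne and Chrng), the agrin receptor and kinase pathway (Lrp4, Musk and Dok7), the receptor-clustering protein rapsyn (Rapsn) and the collagen tail of acetylcholinesterase (Colq). They were taken by gene symbol and are 10 of the 20340 gene labels with a value in every sample. TA (tibialis anterior) muscle lifts the foot and lies beside the shin. It came from wild type C57BL/6 mice of 20 months (Old) and 3 months (Young). The old muscles are described by the study as atrophic. Each age had 2 samples, Old 1 and Old 2 against Young 1 and Young 2, with no treatment and no transgene, although the series is described as done in triplicate. Pairs of values are given below in that order. The methods of the study leave the sex of the mice to chance, and the sex in each sample is not given here, nor whether a sample was 1 mouse or a pool.

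At the neuromuscular junction, the nerve terminal releases acetylcholine onto receptors packed at the crests of the folded muscle membrane. The nerve also secretes agrin, which binds LRP4 and thereby activates the kinase MuSK. DOK7 is the cytoplasmic adaptor that MuSK needs for full activity, and rapsyn links receptors into clusters below the membrane. The receptor is a pentamer with a pair of α subunits and 1 each of β and δ, and its remaining subunit is γ in the fetus and ε in the adult. In innervated muscle, several of these genes are transcribed strongly only by a few nuclei of each fiber, those below the synapse. For some of the genes, but not all, transcription spreads along the fiber after loss of the nerve. E-boxes (CANNTG), which myogenic factors such as myogenin bind, and the N-box (CCGGAA), which ETS-family factors bind, are the best described elements of their promoters.

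In mm10 coordinates, Dok7 was at chr5:35056879-35087831 on the plus strand and Musk at chr4:58285962-58376544 on the plus strand. Lrp4 and Rapsn were both on chromosome 2 plus, at chr2:91457531-91513901 and chr2:91035627-91045729. Chrna1 was at chr2:73563281-73580306 on the minus strand. Chrnb1 and Chrne were on the minus strand of chromosome 11, at chr11:69784036-69795937 and chr11:70614883-70619249. Chrnd and Chrng were neighbours on chromosome 1 plus, at chr1:87190652-87200070 and chr1:87205811-87211835, with 5.7 kb between them. Colq was at chr14:31523084-31577383 on the minus strand. The loci covered whole genes with exons and introns. The most exons in a protein-coding transcript ranged from 8 for Rapsn to 38 for Lrp4. Chrne was overlapped on the opposite strand by 4930544D05Rik, and Rapsn by Gm13778, while Gm24057 and Gm49387 overlapped Colq on its own strand. Whether the authors counted reads by strand is not given in the sources used here, so reads of such overlapping genes may not have been told apart.

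The promoters of 4 members are shown because Dok7 and Chrna1 were lower in Old and Chrne and Musk higher in the values given further on. Sequences are the bases before the first annotated start in RefSeq (GRCm38.p6), 5′ to 3′ on the strand of the gene, with CANNTG and CCGGAA (either strand) in capitals. The Chrne sequence stops where the measured locus begins.
Dok7, chr5:35056516-35056765, plus: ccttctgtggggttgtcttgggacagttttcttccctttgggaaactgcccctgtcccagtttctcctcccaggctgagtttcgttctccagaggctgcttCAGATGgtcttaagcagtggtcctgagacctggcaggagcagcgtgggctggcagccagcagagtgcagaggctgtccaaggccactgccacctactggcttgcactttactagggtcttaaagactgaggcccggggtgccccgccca
Chrne, chr11:70619250-70619444, minus: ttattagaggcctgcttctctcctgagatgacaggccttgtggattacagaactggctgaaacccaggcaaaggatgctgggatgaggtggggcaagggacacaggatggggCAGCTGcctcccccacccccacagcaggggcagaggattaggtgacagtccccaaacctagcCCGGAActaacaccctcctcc
Musk, chr4:58285712-58285961, plus: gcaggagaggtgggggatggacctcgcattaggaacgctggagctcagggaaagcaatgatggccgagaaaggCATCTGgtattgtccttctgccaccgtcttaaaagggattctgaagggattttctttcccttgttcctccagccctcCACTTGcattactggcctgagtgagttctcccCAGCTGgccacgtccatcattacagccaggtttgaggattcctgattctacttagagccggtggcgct
Chrna1, chr2:73580339-73580588, minus: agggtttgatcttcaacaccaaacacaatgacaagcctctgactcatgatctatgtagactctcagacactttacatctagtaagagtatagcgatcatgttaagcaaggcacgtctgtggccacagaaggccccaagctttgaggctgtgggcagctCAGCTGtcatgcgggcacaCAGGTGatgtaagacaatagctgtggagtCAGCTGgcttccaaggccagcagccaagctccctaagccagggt
The Dok7 window held 1 CANNTG, with the letters CAGATG, and no CCGGAA, and the window of a second annotated Dok7 start, at chr5:35056822-35057071, held neither. The Musk and Chrna1 windows held 3 CANNTG each, and so did those of Chrnb1 and Chrng. Chrne held 1 CANNTG and was the only one of the 6 members with a window to hold CCGGAA. Among all 32851 windows of 250 bases, 66.2% held at least 1 CANNTG, 12.2% held at least 3 and 12.03% held CCGGAA. A match describes these letters only, and binding was not measured. Chrnd, Rapsn, Lrp4 and Colq were not matched to a window.

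Levels are FPKM as the authors deposited them, that is, fragments divided by transcript length and by the total of mapped fragments, so that different genes of a sample can be compared per length. Sequencing depth is unknown here, which leaves counting error without an estimate. The 2 samples of an age differed by a factor common to most genes, with a median fold of 2.17 for Old 1 over Old 2 and 2.13 for Young 2 over Young 1. Old 1 and Young 2 were thus of like scale, as were Old 2 and Young 1, and the FPKM ratio within each of these pairs is given as a description, for Old 1 with Young 2 first and for Old 2 with Young 1 second. Over 2086 loci with a mean of 10 to 30 FPKM, log2 ratios had a robust SD of 0.066 for Old 1 over Old 2 and 0.068 for Young 2 over Young 1, against 0.40 within each pair of like scale. The study calls its mRNA-seq experiments independent. With so narrow a spread, the 2 samples of an age may still be technical repeats, and p-values measure only the spread between these samples. Differences were tested with limma on log2(FPKM + 1) after scaling each sample to the same median, with an adjusted p under 0.05 as the threshold. This called 12 genes higher (0.117%) and 13 lower (0.127%) in Old, together 0.244% of the 10266 genes tested. Without scaling, 18 were called higher and 13 lower, together 0.302%.

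**Figure D1:**
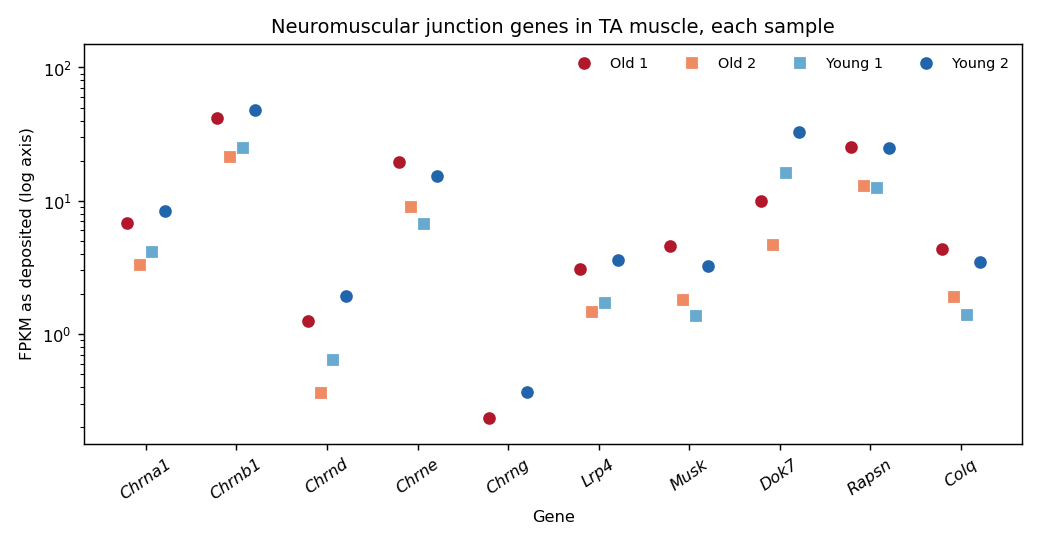
FPKM as deposited (log axis) of the 10 neuromuscular junction genes in each of the 4 samples, circles for the samples of high scale (Old 1, Young 2) and squares for those of low scale (Old 2, Young 1). Chrng is not drawn in Old 2 and Young 1, where it was listed at 0. Dok7 is the 1 gene whose old points, 9.91 and 4.69, both lie below its young points, 16.2 and 32.9.

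Among the 10 genes, Dok7 mRNA was lower in Old TA muscle by more than 3-fold, whereas the other 8 tested genes differed by at most 1.76-fold within a pair. Chrne, Musk and Colq were slightly higher and Chrna1, Chrnb1, Chrnd and Lrp4 slightly lower in Old in both pairs, and Rapsn was nearly level. Of the 9 members that passed the filter on low values (at least 1 FPKM in at least 2 samples), 0 passed the threshold of limma, against 0.244% of all genes tested. An unadjusted p under 0.05 was found for 2 members, 1 higher (Musk) and 1 lower (Dok7), and for 6.34% of all genes higher and 9% lower. Chrng did not pass the filter. The median log2 difference was -0.16 over the 9 tested members and -0.02 over all genes tested. In both pairs 4 members were higher and 5 lower, against 45.5% and 48.6% of the 9293 tested genes above 0 in every sample. After median scaling, both old samples lay above both young samples for 3 members (Chrne, Musk and Colq) and below them for 3 (Chrna1, Chrnd and Dok7), against 20.4% and 23.8% of all genes tested. In bulk muscle, fewer fibers or nuclei of a kind and less mRNA per nucleus cannot be told apart.

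Other settings called more genes, among them more members. After cyclic loess, which removes a factor that varies with expression, 1 member was called higher (Chrne) and 2 lower (Chrnb1 and Dok7), where 11.1% and 13.6% of all genes were called. With at least 1 FPKM required in every sample, 2 were higher (Chrne and Musk) and 2 lower (Chrna1 and Dok7), where 15.8% and 17.7% of 7228 genes were called. Scaling by the median of ratios called Dok7 lower and no member higher, against 0.731% of all genes lower and 0.594% higher. Quantile normalization also called Dok7 lower and no member higher, against 1.83% lower and 1.16% higher. With the pairs of like scale as a block, 3 members were higher and 5 lower, against 29.6% and 34.7% of all genes. Values as deposited called 0 members. In these settings, members other than Dok7 were called only where at least 11.1% of all genes were called in the same direction.

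DOK7 is recruited to MuSK and keeps the kinase active, and recessive loss of its function in humans causes a limb-girdle form of congenital myasthenia. Dok7 mRNA was at 9.91 and 4.69 FPKM in Old and 16.2 and 32.9 FPKM in Young. The 2 ages did not overlap, although the scale factor put Old 2 far below Old 1: even the old sample of high scale lay below the young sample of low scale. Among all tested genes, 1.93% had both old samples below both young samples in FPKM as deposited, and Dok7 was the only member of this kind.

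Young 2 exceeded Old 1 by 3.32-fold and Young 1 exceeded Old 2 by 3.45-fold, which are log2 differences of -1.73 and -1.79 for Old over Young. Of the 9293 tested genes above 0 in every sample, 57 (0.613%) were at least as far down in Old in both pairs, Dok7 included. In the fit, the log2 difference was -1.63 (SE 0.19, 95% interval -2.15 to -1.11), with an adjusted p of 0.0970 by limma. The call depended on the scaling and on other settings. The adjusted p was 0.0412 after scaling by the median of ratios, 0.0154 after quantile normalization and 0.00526 after cyclic loess, while it was 1.00 for values as deposited. In these 4 fits and after median scaling, the log2 difference lay between -1.63 and -1.60. With median scaling kept, the adjusted p by limma was 0.139 without the trend, 0.0725 with a pseudocount of 0.1 and 0.0562 with the replicate number as a block. It was 0.0930 with the highest locus per symbol, and Dok7 did not pass without the filter on low values either. It passed with at least 1 FPKM required in every sample (0.00369) and with the pairs of like scale as a block (0.00491). Leaving out any 1 of the 4 samples gave log2 differences of -1.76 to -1.49, where 1 age rests on a lone sample. The exact two-sided permutation test of FPKM gave p = 0.333, the smallest value that 2 samples against 2 allow.

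MuSK is the receptor kinase at the center of synapse formation. Musk mRNA was at 4.55 and 1.81 FPKM in Old and 1.37 and 3.23 FPKM in Young. It was thus higher in Old within each pair, by 1.41-fold and 1.32-fold, although the ages overlapped in FPKM as deposited. The fitted log2 difference was 0.32 (SE 0.10), with an adjusted p of 0.293 by limma.

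LRP4, the muscle receptor for nerve-derived agrin, binds and activates MuSK. Lrp4 mRNA was at 3.08 and 1.47 FPKM in Old and 1.71 and 3.60 FPKM in Young. It was higher in Young by 1.17-fold in each pair, and the 2 pairs differed by only 0.004 on the log2 scale. The fitted log2 difference was -0.16 (SE 0.14, adjusted p = 0.667 by limma).

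**Figure D2:**
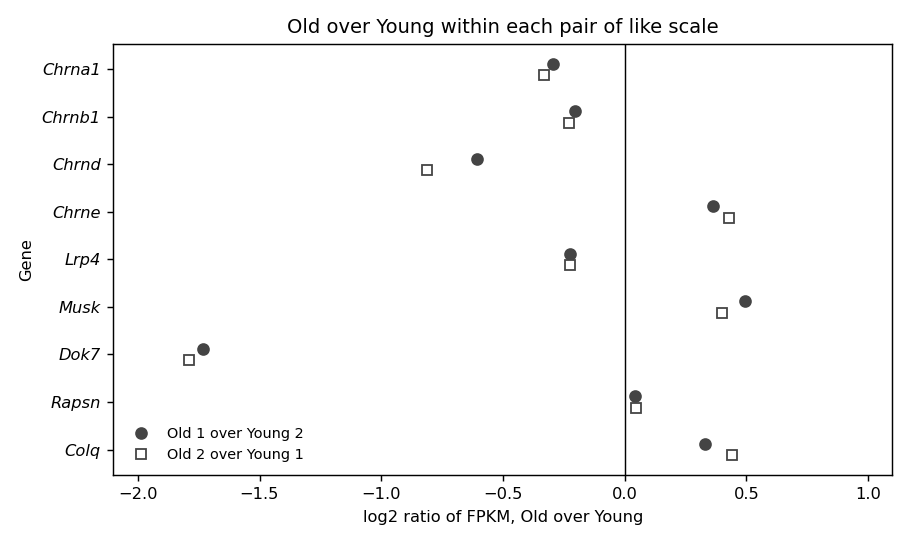
log2 ratio of FPKM, Old over Young, for the 9 members above 0 in every sample, filled circles for Old 1 over Young 2 and open squares for Old 2 over Young 1. Dok7 lies at -1.73 and -1.79, Chrnd at -0.61 and -0.81, and the other 7 lie within 0.5 of 0.

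A ratio of FPKM within a sample is free of any factor that all genes of the sample share, but keeps the part that differs between genes. Old 1 over Old 2 was 1.95-fold for Chrnb1, 2.11-fold for Dok7 and 2.51-fold for Musk. The ratio of Dok7 to Musk was 2.18 in Old 1 and 2.59 in Old 2, against 11.8 in Young 1 and 10.2 in Young 2. The ratio of Dok7 to Lrp4 was 3.22 and 3.20 in the old samples, and 9.47 and 9.15 in the young samples. Dok7 to Rapsn was 0.388 and 0.362 in Old 1 and Old 2, and 1.29 and 1.33 in Young 1 and Young 2. With Chrnb1 as the denominator, the ratios were 0.239 and 0.221 in Old and 0.650 and 0.689 in Young. The samples of an age lay close together in each of the 4 ratios and the ages did not overlap, with p = 0.333 in the exact two-sided permutation test, the smallest this design allows. These ratios share Dok7 and are not independent of each other. For them, and for the ratios and shares below, how often other gene pairs do not overlap was not counted. Such cases may be common, since log2 ratios spread less within an age than between the ages. Their robust SD was 0.066 and 0.068 within an age, against 0.40, for loci of 10 to 30 FPKM.

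**Figure D3:**
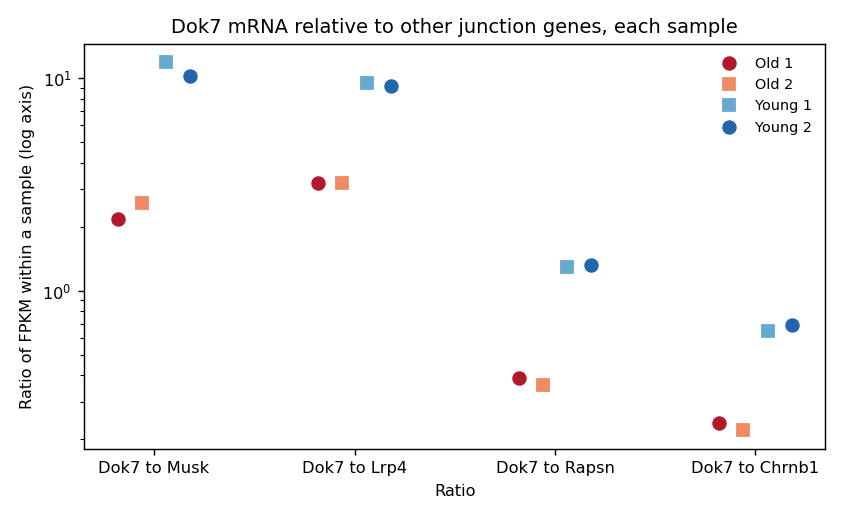
Ratio of Dok7 FPKM to that of Musk, Lrp4, Rapsn and Chrnb1 within each sample (log axis), one point per sample. Both old samples lie below both young samples in every ratio, for example at 2.18 and 2.59 against 11.8 and 10.2 for Dok7 to Musk.

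The ratio of Musk to Lrp4, the other partners of the pathway, went the other way. It was 1.48 in Old 1 and 1.23 in Old 2, against 0.800 in Young 1 and 0.896 in Young 2. Musk was thus above Lrp4 in both old samples and below it in both young samples (exact two-sided permutation p = 0.333).

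Among the receptor subunits, Chrne was the 1 gene higher in Old in both pairs. CHRNE is the ε subunit, which gives the adult receptor its brief and large conductance. Chrne mRNA was at 19.7 and 8.98 FPKM in Old and 6.67 and 15.3 FPKM in Young. Old exceeded Young by 1.29-fold and 1.35-fold in the pairs, while the FPKM of the ages overlapped. The fitted log2 difference was 0.36 (SE 0.15, adjusted p = 0.387 by limma), and it passed the threshold after cyclic loess (adjusted p = 0.0402), where 11.1% of all genes were called higher. The gene on the opposite strand, 4930544D05Rik, was listed at 5.12 FPKM in Old 1, 3.25 in Young 2 and 0 in Old 2 and Young 1, and its part in the Chrne values was not tested.

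The α subunit, encoded by Chrna1, carries the binding sites for acetylcholine. Its mRNA was at 6.80 and 3.30 FPKM in Old and 4.15 and 8.35 FPKM in Young. It was higher in Young in both pairs, by 1.23-fold and 1.26-fold. The fitted log2 difference was -0.27 (SE 0.16, adjusted p = 0.519 by limma).

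Chrnb1, the β subunit through which rapsyn anchors the receptor, was at 41.5 and 21.3 FPKM in Old and 25.0 and 47.8 FPKM in Young. It was the highest of the 10 genes in each of the 4 samples. Young exceeded Old by 1.15-fold and 1.17-fold in the pairs. The fitted log2 difference was -0.22 (SE 0.25, adjusted p = 0.790 by limma), and it passed the threshold after cyclic loess with a log2 difference of -0.19 (adjusted p = 0.0477).

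Chrnd, the δ subunit, was at 1.26 and 0.363 FPKM in Old and 0.637 and 1.92 FPKM in Young. Young exceeded Old by 1.52-fold and 1.76-fold, the widest ratios among the tested members after those of Dok7. At these low levels the pseudocount of 1 narrowed the fitted log2 difference to -0.33 (SE 0.20, adjusted p = 0.528 by limma). Chrnd also had the largest difference between the pairs among the tested members, 0.21 on the log2 scale. The median over the 9293 tested genes above 0 in every sample was 0.050.

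Chrng, the fetal γ subunit, was at 0.235 FPKM in Old 1 and 0.365 in Young 2, and was listed at 0 in Old 2 and Young 1. It was the lowest of the 10 genes in each sample and was not tested. An exact 0 may be a failed estimate in these values, since Ckm, the abundant muscle creatine kinase, was listed at 0 in all 4 samples. In neither age did Chrng come near the level of Chrne.

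Within the summed FPKM of the 5 subunits, the share of Chrne was 28.3% and 26.5% in Old and 18.3% and 20.8% in Young. The ages did not overlap, Old being higher. Chrnb1 held 59.7% and 62.7% in Old 1 and Old 2, and 68.5% and 64.8% in Young 1 and Young 2. Chrna1 held 9.79% and 9.73% in the old samples, and 11.4% and 11.3% in the young ones. The shares of Chrne, Chrnb1 and Chrna1 did not overlap between the ages (exact two-sided permutation p = 0.333, the smallest possible). Since shares add up to the whole they are not independent, and how common such a result is for other genes was not counted. Chrnd overlapped, at 1.82%, 1.07%, 1.75% and 2.60% in Old 1, Old 2, Young 1 and Young 2. Chrng held at most 0.495%, in Young 2. The ratio of Chrne to Chrna1 was 2.90 and 2.72 in Old, and 1.61 and 1.83 in Young.

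**Figure D4:**
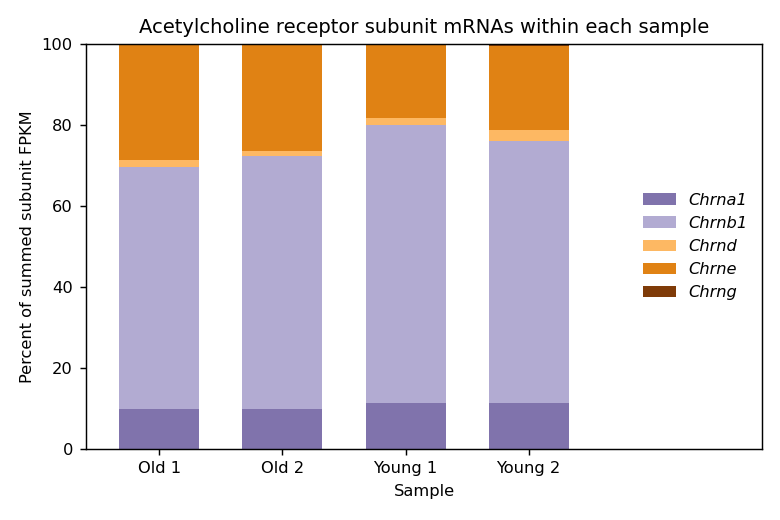
Percent of the summed FPKM of Chrna1, Chrnb1, Chrnd, Chrne and Chrng held by each subunit, one stacked bar per sample. The Chrne part is 28.3% and 26.5% in the old samples and 18.3% and 20.8% in the young samples, and Chrng is at or near 0 in each bar.

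Rapsyn binds the receptors and holds them in clusters. Rapsn mRNA was at 25.5 and 13.0 FPKM in Old and 12.5 and 24.8 FPKM in Young. Old exceeded Young by only 1.03-fold in each pair. The fitted log2 difference was 0.04 (SE 0.22, adjusted p = 0.999 by limma), with a 95% interval of -0.59 to 0.66 that allows a difference of either sign. Its sign turned to -0.13 without Old 2 and to -0.12 without Young 2. Set against Chrnb1, its partner in the receptor, Rapsn was at 0.616 in Old 1 and 0.609 in Old 2, against 0.502 in Young 1 and 0.519 in Young 2. This ratio did not overlap between the ages (exact two-sided permutation p = 0.333), and how common this is among other gene pairs was not counted.

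COLQ anchors acetylcholinesterase, the enzyme that ends transmission, in the synaptic basal lamina. Colq mRNA was at 4.36 and 1.89 FPKM in Old and 1.39 and 3.47 FPKM in Young. Old exceeded Young by 1.26-fold and 1.36-fold in the pairs, with a fitted log2 difference of 0.27 (SE 0.10, adjusted p = 0.352 by limma). Ache, which encodes the enzyme and shares its measured locus with Ufsp1, was at 33.4 and 14.6 FPKM in Old and 23.8 and 52.3 FPKM in Young, with a log2 difference of -0.66 (SE 0.19, adjusted p = 0.259 by limma). The tail and the enzyme thus differed in opposite directions, neither past the threshold. The ratio of Colq to the Ache locus was 0.131 and 0.129 in Old, and 0.0585 and 0.0663 in Young (exact two-sided permutation p = 0.333).

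By FPKM, the order of the 10 genes was much the same in all samples, with Chrnb1 at rank 1, Chrna1 at rank 5, Chrnd at rank 9 and Chrng at rank 10 in each. Dok7 had rank 2 in both young samples, above Rapsn and Chrne, and rank 4 in both old samples, below them. Lrp4 had rank 6 in both young samples and rank 8 in both old samples. Musk and Colq lay next to Lrp4. Musk was above Colq in Old 1 and below it in Old 2, so that their order could not be told apart in Old.

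Beyond the 10 members, 28 further genes of the synapse were examined, of which 25 were tested. By limma 0 passed the threshold, against 0.244% of all genes, while 1 was higher and 6 were lower with an unadjusted p under 0.05, against 6.34% and 9% of all genes. The log2 difference was positive for 7 and negative for 18, with a median of -0.23. Of the 23 tested genes above 0 in every sample, 5 were higher and 17 lower in Old in both pairs, where 45.5% and 48.6% of all such genes were. Agrn, which encodes agrin in muscle as well as in nerve, was at 5.29 and 2.61 FPKM in Old and 4.32 and 8.27 FPKM in Young. Its values were higher in Young by 1.56-fold and 1.66-fold in the pairs, with a fitted log2 difference of -0.57 (SE 0.17, adjusted p = 0.280 by limma). Chosen after its values were seen, Sntb1, the β1-syntrophin of the dystrophin complex, was at 2.81 and 1.09 FPKM in Old and 3.78 and 7.77 FPKM in Young. Young exceeded Old there by 2.76-fold and 3.48-fold (log2 difference -1.23, SE 0.12, adjusted p = 0.0820 by limma), and, as with Dok7, the ages did not overlap. After cyclic loess, 2 genes of the list were called higher and 7 lower, against 11.1% and 13.6% of all genes.

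Genes known to respond to loss of the nerve gave 1 call, higher in Old, among 8 tested of 11 listed, against 0.117% of all genes called higher and 0.244% called in either direction. Fgfbp1, which encodes a carrier that releases fibroblast growth factors, rose in Old. It was at 12.9 and 5.45 FPKM in Old and 0.294 and 1.22 FPKM in Young. Old exceeded Young by 10.6-fold and 18.5-fold in the pairs, and the log2 difference was 2.54 (SE 0.14, adjusted p = 0.0365 by limma). This call was lost for values as deposited, without the filter on low values and without the trend. Fgfbp1 was not tested with at least 1 FPKM required in every sample. Myog, which encodes myogenin, the factor that drives receptor genes after denervation, was at 6.40 and 2.49 FPKM in Old and 2.77 and 6.61 FPKM in Young, with a log2 difference of -0.08 (SE 0.09, adjusted p = 0.765 by limma). Young exceeded Old by 1.03-fold and 1.11-fold, less than for Chrna1. Hdac4, a deacetylase that links nerve activity to Myog, was chosen after its values were seen: it was at 14.7, 7.51, 3.80 and 7.37 FPKM in Old 1, Old 2, Young 1 and Young 2, 1.99-fold and 1.98-fold higher in Old (adjusted p = 0.207 by limma). With at least 1 FPKM required in every sample, Hdac4 was the 1 gene of the list called higher (adjusted p = 0.00944 by limma). There, 2 genes of the list were called lower, Cdkn1a and Ankrd1 (adjusted p = 0.00972 and 0.0383 by limma). In that setting 15.8% of 7228 genes were called higher and 17.7% lower. Over the 8 tested genes, 3 differences were positive and 5 negative, with a median of -0.08. The list gave no direction for each gene after loss of the nerve, so these signs do not measure such a response.

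**Figure D5:**
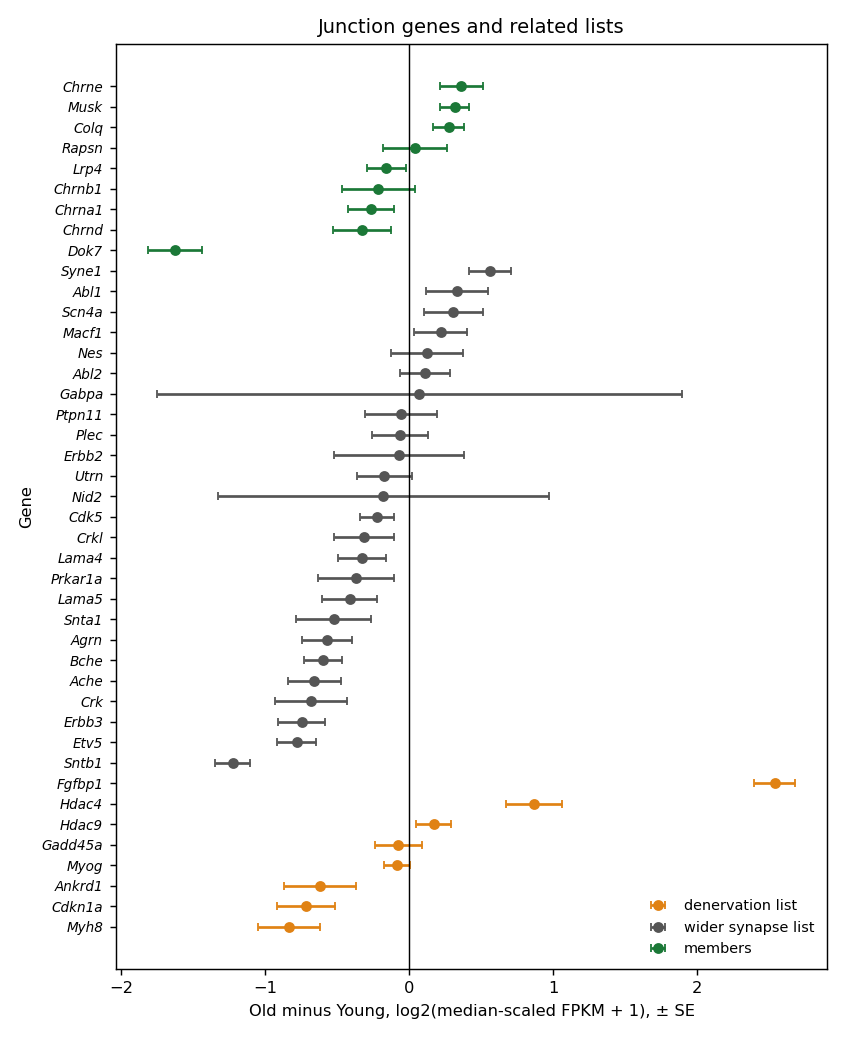
Difference of Old minus Young in log2(median-scaled FPKM + 1), with its SE, for the tested members (green), the wider synapse list (grey) and the denervation list (orange). Fgfbp1 at 2.54 is the 1 gene past the threshold, and Dok7 at -1.63 lies lowest of those drawn. The wide bars of Gabpa and Nid2 belong to genes listed at 0 in Old 2 and Young 1.

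Of 6 other nicotinic receptor genes, 5 were under 1 FPKM in every sample. Chrna10 was at 5.81 and 2.60 FPKM in Old and 2.91 and 6.42 FPKM in Young, which is close to the level of Chrna1, and its adjusted p was 0.694 by limma.

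Markers of fibers and of other cells are given beside these results. Of the 9 muscle markers, Tnnc2, Pvalb and Mb had the highest mean FPKM, and Pvalb was at 3244 FPKM or more in each sample. Mb, the oxygen-binding myoglobin, was higher in Young by 1.67-fold and 1.56-fold (log2 difference -0.69, SE 0.21, adjusted p = 0.279 by limma). Ckm was listed at 0 in every sample, Ttn at 0 in both old samples and Neb at 0 in Old 2 and Young 1. All 5 slow-fiber genes (Myh7, Tnnt1, Myl2, Tnnc1 and Tnni1) rose in Old, with summed FPKM of 1167 and 421 in Old and 27.9 and 73.0 in Young and a median log2 difference of 3.67 (adjusted p = 0.0365 each by limma). Their part in the values of Dok7, Chrne, Musk and the other members was not tested. The 9 Schwann cell markers summed to 39.4, 17.9, 29.1 and 60.2 FPKM in Old 1, Old 2, Young 1 and Young 2, with 3 tested and 0 called. Of 11 motor axon markers, 5, among them Chat, were at 0 in all samples, and the sum was 4.02, 1.09, 0.580 and 2.25 FPKM in the same order. Stmn2 held most of this sum, at 2.96, 0.983, 0.547 and 1.72 FPKM, and was the only one tested (adjusted p = 0.327 by limma). The other 10 were under 1 FPKM in every sample. The summed fibroblast markers lay at 149.7, 77.3, 98.7 and 193.7 FPKM, but their members differed in opposite directions. Col1a1, a chain of fibrillar collagen, was 4.36-fold and 4.26-fold higher in Young (log2 difference -1.97, adjusted p = 0.0895 by limma), further apart than Dok7, and Col3a1 was 2.94-fold and 2.73-fold higher in Young. Dcn, which held most of the sum in Old, was 1.24-fold and 1.21-fold higher in Old, and 2 of the 4 genes were called lower and 1 higher after cyclic loess. The part of these cells in the members' values was not tested. Markers of adipocytes summed to 326.6, 167.1, 183.5 and 353.7 FPKM, but Fabp4 held most of this sum, with 312.8 FPKM in Old 1. Fabp4 was slightly lower in Old in both pairs, while the other 3 adipocyte markers were higher in both. Adipoq was 1.97-fold and 2.17-fold higher in Old (adjusted p = 0.152 by limma). It was called after cyclic loess (adjusted p = 0.0473 by limma), where 11.1% of all genes were called higher. Markers of endothelial cells summed to 48.7, 25.1, 32.1 and 61.0 FPKM. Satellite cell markers summed to at most 2.64 FPKM and macrophage markers to at most 8.90. No gene of these 5 lists was called after median scaling.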

How the data were processed

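The mRNA-seq data comprised 4 TA muscle samples, 2 per age, grouped by the age in the labels. Trimming, removal of PCR duplicates and alignment to mm10 with TopHat2 2.0.10 and RefSeq annotation were done by the authors. The deposited FPKM are per locus, from Cufflinks on each sample separately. The submitters' processing notes also name Cuffdiff 2.1.1. Each sample's values end in 1 incomplete line, which was left out, and 542 loci without a value in every sample were not used. Symbols listed together at 1 locus stayed 1 joint label in the fit and were split only to find members and listed genes. Loci with the same label were summed. A locus start in the values plus 1 was taken as the first base, which matched the RefSeq start for 7769 of 17004 loci.

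Genes reaching 1 FPKM or more in at least 2 samples were tested with limma 3.58.1 in R 4.3.3 (trend, two-sided, Benjamini-Hochberg over the 10266 genes tested) on log2(scaled FPKM + 1), a scale that understates changes of low genes. Median scaling was used because values as deposited differ within an age by a factor that would otherwise set the spread. The factor varies with expression, so 1 scale per sample leaves part of it in place. Low values were examined for steps of single reads. Of loci under 0.1 FPKM in both samples of a pair, at most 3.34% shared a ratio bin of 0.02 on the log2 scale. The share expected without such steps was not worked out, so their presence was not settled. Counts were not recovered from the values, and a count test was not run. Other tools were matplotlib 3.10.9, scipy 1.17.1, numpy 2.4.6 and pandas 2.3.3 in Python 3.11.15.

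The members and lists were chosen with earlier results of these data known. Named were all members, genes of the wider synapse and denervation lists past the threshold (at most 6 of each), Myog, Agrn and Ache, and at most 3 genes, by mean FPKM, of each marker list and of the other nicotinic receptor genes. The 5 slow-fiber genes, Ckm, Ttn, Neb, Chat, Sntb1, Hdac4, Cdkn1a and Ankrd1 were named after their values were seen. Alternatives were other scalings, pseudocounts, filters and locus choices, no trend, blocks, and leaving out each sample.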

Additional observations from a re-analysis of the deposited data

How the results depend on the processing

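Under all alternatives run, the 134 log2 differences of members kept their direction except Rapsn, which ranged from -0.13 to 0.21 when 1 sample was left out and was negative without Old replicate 2 (-0.13) and without Young replicate 2 (-0.12). None lost significance, since none had it. Members other than Dok7 gained it only after cyclic loess, with at least 1 FPKM in every sample, and with the pairs of like scale as a block. Those settings called 11.1% to 34.7% of all genes tested in each direction. Dok7 passed the threshold in 9 of 15 alternatives, with log2 differences of -1.76 to -1.49 and adjusted p-values (limma) from 5.7e-05 to 1.00. Without 1 sample at a time it passed in each of the 4 fits, where the lone sample of an age is assumed to vary like the others. In these fits 116 to 405 of all genes were called higher and 138 to 515 lower, with 0 members higher and 1 lower, 0 to 1 genes of the wider synapse list higher and 1 to 3 lower, and 1 to 2 of the denervation list higher.

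Counts of all genes called were 1143 higher and 1278 lower with at least 1 FPKM in every sample, 1135 and 1395 after cyclic loess, 61 and 75 by the median of ratios, 119 and 188 after quantile normalization, 33 and 28 with a pseudocount of 0.1, 7 and 4 without the trend, and 0 and 2 without a filter. With at least 1 FPKM in every sample, 2 members were higher (Chrne 0.37, Musk 0.33) and 2 lower (Chrna1 -0.26, Dok7 -1.62), with 2 higher and 8 lower in the wider synapse list and 1 higher (Hdac4, since Fgfbp1 was not tested there) and 2 lower in the denervation list. After cyclic loess, 1 member was higher (Chrne 0.37) and 2 lower (Chrnb1 -0.19, Dok7 -1.60), with 2 and 7 in the wider list and 2 and 2 in the denervation list. By the median of ratios (Dok7 -1.60) and after quantile normalization (Dok7 -1.61), 1 member and 1 gene of the wider list were lower. The denervation list had 0 higher without a filter, without the trend and for values as deposited. Why the counts differ was not tested. Cyclic loess, the median of ratios and the crossed pairs were chosen after seeing the data.

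With the replicate number as a block, 67 genes were called higher and 93 lower, with 1 lower in the wider list. The numbers do not pair the samples: deviations from the age mean correlated at -0.885 between same-numbered samples as deposited and -0.907 after scaling. With Old 1 and Young 2, and Old 2 and Young 1, as crossed pairs in a block, 3039 genes were higher and 3562 lower, with 3 members higher (Chrne 0.36, Musk 0.32, Colq 0.27) and 5 lower (Dok7 -1.63, Chrnd -0.33, Chrna1 -0.27, Chrnb1 -0.22, Lrp4 -0.16), 4 and 15 in the wider list, and 3 and 3 in the denervation list. The unknown depth limits all of these.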
